A study of Mus musculus with 18 samples.

Results

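The 9 genes described here encode transcription factors that establish and shape the macrophage lineage: Spi1, Cebpa, Cebpb, Irf4, Irf8, Maf, Klf4, Klf2 and Runx1. They were taken by gene symbol, with earlier results of these data known, and their probes by the platform annotation. All 9 were among the 10806 genes measured, and 13 of the 14 probes that carry their names passed the detection filter. Cebpa was read by 2 kept probes, Klf4 by 3, Runx1 by 2 and each other member by 1. The probe with the highest mean stands for its gene, and each of these 9 probes was detected on all 18 arrays.

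MacGreen mice on the C57Bl/6J strain, aged 10 to 16 weeks, carry EGFP under the Csf1r promoter, which marks myeloid cells, and RNA came from their sorted EGFP-hi cells. Sterile objects were left free in the peritoneal cavity, and tissue grew around them. Capsule cells were released with collagenase from that tissue at day 7, 14, 21 and 28, and lavage cells were washed from the cavity at day 0 (no implant), 2, 4, 7 and 14. The reporter and the sort are shared by all 9 groups, each of which has 2 arrays of pooled cells. Nothing in the labels ties the 2 arrays to separate animals. The p-values then reflect no more than array-to-array spread, possibly technical, and precision is limited by having 2 arrays a group. Slides 1 and 2 each held 1 array of capsule day 7 and 1 of each lavage time. Capsule day 14 was alone on slide 3, and capsule day 21 and 28 shared slide 4, so that slide and group cannot be told apart where these 3 groups are compared with earlier capsule cells or with lavage. Mean intensity per array was 455 to 528 on slides 3 and 4 and 585 to 1053 on slides 1 and 2. Of 9 macrophage markers, 7 were measured, with summed levels of 91397 to 122046 on the linear scale over all arrays. Among them Adgre1, Lyz2, Itgam, Cd14 and Mertk were detected on every array, while Fcgr1 was detected on neither lavage array of day 14. Cx3cr1 was detected on 1 array each of lavage day 14 and capsule day 7, with means of 6.05 and 5.83. It averaged 11.37 at lavage day 2. Csf1r and Cd68 were not analysed here.

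PU.1, the product of Spi1, binds the enhancers of myeloid genes and opens them for the C/EBP proteins, its main partners in the macrophage program. IRF4 and IRF8 bind DNA weakly on their own and are recruited by PU.1 to composite sites; IRF8 directs monocyte development and interferon responses, and IRF4 is linked to alternative activation by interleukin 4. c-Maf (Maf), KLF4, KLF2 and RUNX1 adjust this core program, in activation state, quiescence and the control of Spi1 itself. In bulk RNA of sorted cells, fewer cells that express a gene and less RNA per cell cannot be told apart.

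Levels are normalised log2 intensities, and a change is a difference of group means on that scale from limma with its standard error (SE). Rose and fell are used where the adjusted p was under 0.05. In the cavity, 4 of 9 members changed at day 2 against day 0, all of them upwards, where 25% of all genes changed. In the 12 arrays of slides 1 and 2 alone, 2 of the 4 passed, both with and without the slide as a block. At day 4, 3 members rose and none fell, where 28% of all genes changed. At day 7, 3 rose and 1 fell (28.6% of all genes changed), and at day 14, 2 rose and 1 fell (19.8% of all genes changed). These 4 comparisons share the day 0 arrays. In the capsule, set against its day 7 arrays, 1 member rose and 2 fell at day 14 (23.9% of all genes changed), 2 rose and 3 fell at day 21 (35.3%), and 2 rose and 4 fell at day 28 (31.2%). Capsule against lavage, 1 rose and 2 fell at day 7 (24.1% of all genes changed), and 2 rose and 2 fell at day 14 (35.3%). These counts rest on the chosen probes, and other probes of Klf4, Cebpa and Runx1 gave other calls, as described below. Of the 2 falls at day 14, 1 was that of Klf4, which rose there with its other 2 probes. The members' median absolute change ran from 0.18 to 0.51 over these 9 comparisons, and that of all genes from 0.28 to 0.37. At day 14 of capsule against lavage it was 0.18 for the members and 0.36 for all genes.

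**Figure D1:**
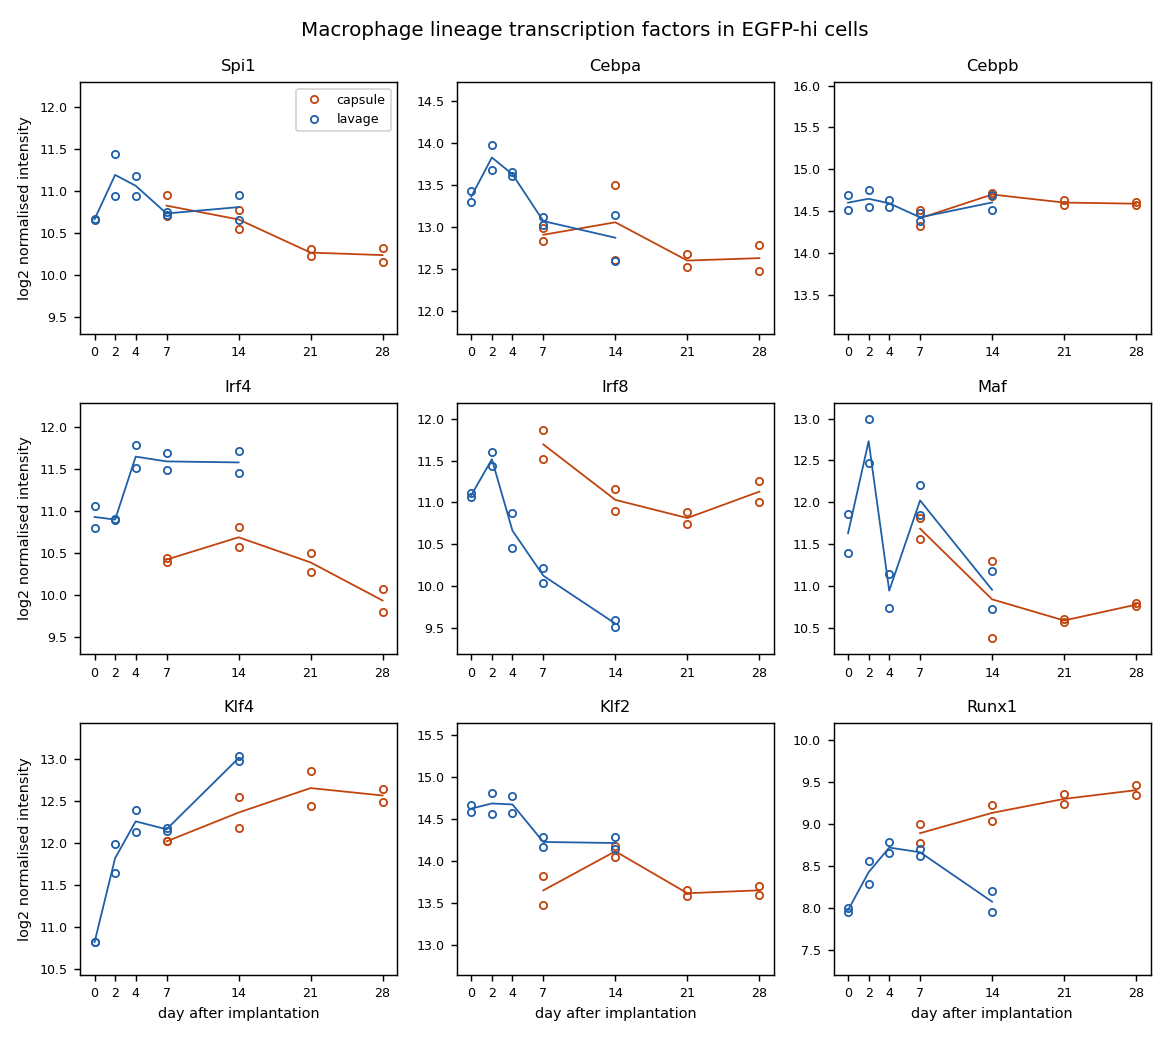
Normalised log2 intensity of the 9 members by day after implantation, with 1 open circle per array, lines through group means, capsule cells in orange and lavage cells in blue, and the same height of 3 log2 units in each panel. Irf8 lies higher and Irf4 lower in capsule than in lavage at both shared days, Klf4 climbs in lavage, and Cebpb stays within 0.28 over all group means.

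Irf8 and Irf4 separated the 2 compartments, in opposite directions. At day 7, Irf8 measured 11.86 and 11.52 in capsule cells, against 10.04 and 10.22 in lavage cells. At day 14 it measured 11.16 and 10.90 in capsule cells, against 9.52 and 9.59 in lavage cells. The arrays of the compartments did not overlap on either day. Irf8 was 2.96-fold higher in the capsule at day 7 (1.57 log2, SE 0.17, limma adjusted p 2.09e-05), by 1.83 within slide 1 and 1.31 within slide 2, and 2.78-fold higher at day 14 (1.48, SE 0.17, adjusted p 2.06e-05). Irf4 ran the other way: 10.45 and 10.40 in capsule cells against 11.70 and 11.49 in lavage cells at day 7, and 10.81 and 10.57 in capsule cells against 11.45 and 11.71 in lavage cells at day 14. It fell by 1.17 at day 7 (SE 0.17, adjusted p 0.000175), with -1.25 and -1.09 within the slides, and by 0.89 at day 14 (SE 0.17, adjusted p 0.000947). The interaction, the capsule-minus-lavage difference at day 14 less that at day 7, did not pass for Irf8 (-0.09, 95% interval -0.62 to 0.44, adjusted p 0.861) or Irf4 (0.28, interval -0.23 to 0.79, adjusted p 0.504).

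**Figure D2:**
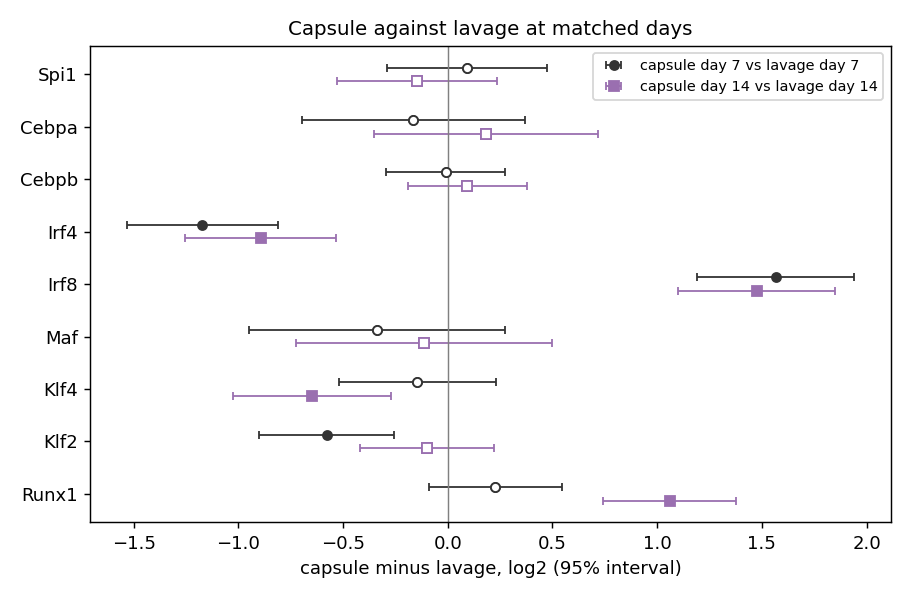
Capsule minus lavage on the log2 scale for each member at day 7 (circles) and day 14 (squares), with 95% intervals from the limma fit; filled symbols passed at an adjusted p under 0.05. Irf8 lies at 1.57 and 1.48 and Irf4 at -1.17 and -0.89, Runx1 is at 1.06 at day 14 only, and Spi1, Cebpa, Cebpb and Maf are open on both days.

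Several other cell types share these factors, and their markers differed between the compartments as well. IRF8 and IRF4 are used by B cells and dendritic cells. Of 9 B cell markers 7 were measured, of which 1 rose and 4 fell in capsule against lavage at day 7 (median change -1.47) and likewise at day 14 (-1.63). Cd79b, a chain of the B cell receptor complex, averaged 7.90 in capsule cells against 10.78 in lavage cells at day 7. Cd79a, Ms4a1 and Pou2af1 were detected on neither capsule array of day 7 and on both lavage arrays. The summed level of the 7 was nevertheless 7704 to 7827 in capsule cells, against 4439 to 5602 in lavage cells, at day 7, and 6010 to 7144 in capsule cells against 4146 to 6114 in lavage cells at day 14. Blnk, an adaptor of B cell receptor signalling, carries that sum: it averaged 12.83 in capsule cells against 10.98 in lavage cells at day 7 and 12.56 in capsule cells against 11.01 in lavage cells at day 14, and the other 6 means were lower in capsule on both days. The 5 measured of 8 dendritic cell markers summed to 1121 to 1298 in capsule cells against 1412 to 1557 in lavage cells at day 7, and to 1632 to 2135 in capsule cells against 2557 to 3270 in lavage cells at day 14, without overlap on either day. Of the 5, 1 rose and 1 fell on each day (median change 0.09 and 0.20). Cd209a averaged 7.52 in capsule cells against 9.55 in lavage cells at day 7 and 10.00 in capsule cells against 11.17 in lavage cells at day 14, while the means of Zbtb46 and Ccr7 were higher in capsule on both days. Of 10 mast cell and eosinophil markers 6 were measured, and 4 fell at day 7 (median -2.06), with sums of 251 to 284 in capsule cells against 1122 to 1412 in lavage cells. At day 14 they summed to 266 to 273 in capsule cells against 291 to 305 in lavage cells, but 0 rose and 0 fell (median -0.14). On that day 2 to 3 of the 6 were detected per capsule array and 1 to 4 per lavage array. Immediate early and heat shock genes, which tissue digestion is known to induce, were higher in the capsule. Their 13 measured members summed to 126944 to 145353 in capsule cells against 25802 to 27266 in lavage cells at day 7, and to 206106 to 212159 in capsule cells against 24949 to 27973 in lavage cells at day 14. Of the 13, 12 rose at day 7 and 13 at day 14. Fibroblast markers (4 of 7 measured) summed to 1825 to 1939 in capsule cells against 176 to 226 in lavage cells at day 14. Endothelial markers (4 of 7) summed to 3781 to 4158 in capsule cells against 2204 to 2954 in lavage cells. In each list 3 rose and 0 fell at day 14, and at day 7, 1 fibroblast and 2 endothelial markers rose. Dcn carries the fibroblast sum of day 14, with means of 10.65 in capsule cells and 5.38 in lavage cells. Vwf carries the endothelial difference of that day (10.95 in capsule cells, 8.76 in lavage cells), while Pecam1 averaged lower in capsule (10.58 against 10.86). The part of digestion and of these other cells in the capsule-lavage differences was not tested.

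The promoters of Irf8 and Irf4 are shown because these genes gave the opposite compartment differences. Each is the 250 bases before the RefSeq start site on build GRCm38.p6, 5′ to 3′ on the gene's strand. Irf8 lies at chr8:120736108-120736357 on the plus strand, the first of its 2 RefSeq start sites, and Irf4 at chr13:30748983-30749232, also on the plus strand. Capitals mark TTCNNNGAA (the GAS element bound by STAT factors), GGGCGG (the GC box) and TATAAA, each searched on both strands.
Irf8: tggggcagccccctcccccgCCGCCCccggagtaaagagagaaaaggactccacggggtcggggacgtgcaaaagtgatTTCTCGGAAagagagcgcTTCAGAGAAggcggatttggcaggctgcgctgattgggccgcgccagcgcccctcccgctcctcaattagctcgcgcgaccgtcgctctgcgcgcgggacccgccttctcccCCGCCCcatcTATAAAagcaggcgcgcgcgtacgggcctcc
Irf4: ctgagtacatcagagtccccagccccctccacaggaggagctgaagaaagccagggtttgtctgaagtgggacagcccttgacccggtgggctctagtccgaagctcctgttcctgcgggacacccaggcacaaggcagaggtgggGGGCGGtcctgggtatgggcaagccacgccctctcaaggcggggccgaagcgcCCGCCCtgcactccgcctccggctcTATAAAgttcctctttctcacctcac
The Irf8 window holds 2 matches to TTCNNNGAA, as TTCTCGGAA and a second 3′ of it, which 7.02% of all 32851 promoter windows of this length hold at least once. The Irf4 window holds none. Both windows shown hold 2 GC boxes and a TATAAA. Of all windows, 32.7% hold at least 1 GC box and 12.4% at least 1 TATAAA. The window before the second Irf8 start site, not shown, holds no match to TTCNNNGAA, GGGCGG or TATAAA. A match is a description of the letters and not a measured site. RefSeq windows were matched for 7 of the 9 members; Spi1 and Maf were not among them.

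Over time in the cavity the 2 IRF genes also moved apart. Irf8 measured 11.07 and 11.11 at day 0, 11.43 and 11.60 at day 2, 10.87 and 10.45 at day 4, 10.04 and 10.22 at day 7, and 9.52 and 9.59 at day 14. From day 2 on, each later pair lay wholly below the pair before it. Irf8 fell by 0.96 at day 7 against day 0 (SE 0.17, limma adjusted p 0.000868; -1.03 and -0.89 within slides) and by 1.53 at day 14 (SE 0.17, adjusted p 2.5e-05; -1.55 and -1.52 within slides), which left it 2.89-fold lower than at day 0. The differences at day 2 (0.43, adjusted p 0.0916) and day 4 (-0.42, adjusted p 0.0877) did not pass. Irf4 measured 10.80 and 11.06 at day 0, 10.89 and 10.90 at day 2, 11.51 and 11.79 at day 4, 11.70 and 11.49 at day 7, and 11.45 and 11.71 at day 14. Its arrays of day 4, 7 and 14 overlapped each other and lay above all arrays of day 0 and 2. Irf4 rose by 0.72 at day 4 (SE 0.17, adjusted p 0.0054), 0.66 at day 7 (adjusted p 0.00866) and 0.65 at day 14 (adjusted p 0.0138). These 3 calls were lost without day 0 replicate 1, and without day 4 replicate 2, day 7 replicate 1 or day 14 replicate 2 for their own day, at adjusted p up to 0.122. With median scaling in place of quantiles the rise at day 14 was 0.29 and did not pass, while the median of all genes moved by -0.29. Markers of cells that use these factors moved over the same days. B cell markers summed to 10080 to 10237 at day 0, 3838 to 4356 at day 2, 4309 to 4977 at day 4, 4439 to 5602 at day 7 and 4146 to 6114 at day 14, and 4 to 6 of the 7 fell at each time. Dendritic cell markers summed to 969 to 1047 at day 0, 1218 to 1378 at day 2 and 1088 to 1208 at day 4. Their sums were 1412 to 1557 at day 7 and 2557 to 3270 at day 14. Of the 5, 0 rose and 1 fell at day 2, 1 and 1 at day 4, 2 and 1 at day 7, and 1 and 0 at day 14. Cd209a carries the sum of day 14: it averaged 8.54 at day 0 and 11.17 at day 14. Zbtb46 (8.12 and 7.97) and Ccr7 (7.86 and 7.29) averaged lower at day 14 than at day 0. Siglech (5.98 and 6.38) and Itgae (5.75 and 5.98) averaged higher. The part of these cells in the IRF changes was not tested.

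In the capsule Irf8 fell after day 7 at all 3 times, and Irf4 at day 28. Irf8 measured 11.86 and 11.52 at day 7, 11.16 and 10.90 at day 14, 10.74 and 10.89 at day 21, and 11.26 and 11.004 at day 28. It fell at day 14 (-0.66, limma adjusted p 0.0138), day 21 (-0.88, SE 0.17, adjusted p 0.00177) and day 28 (-0.56, adjusted p 0.0253). The day 21 call held with any 1 array left out; those of day 14 and 28 were lost without day 7 replicate 1 and without replicate 2 of their own day (adjusted p 0.118 to 0.196). Irf4 measured 10.45 and 10.40 at day 7, 10.81 and 10.57 at day 14, 10.50 and 10.27 at day 21, and 10.07 and 9.79 at day 28. Only day 28 passed against day 7 (-0.49, SE 0.17, adjusted p 0.0404), and it was lost without either day 7 array or without day 28 replicate 2 (adjusted p 0.108 to 0.250). On slide 4, which held both days, day 28 less day 21 was -0.45 for Irf4 and 0.32 for Irf8, with no overlap of the arrays. Over the 9 groups, Irf8 was lowest in lavage day 14 (9.56 ± 0.06, SD, n = 2) and highest in capsule day 7 (11.69 ± 0.24), and Irf4 lowest in capsule day 28 (9.93 ± 0.20) and highest in lavage day 4 (11.65 ± 0.20). All 4 capsule means lay below all 5 lavage means in Irf4, although 1 capsule array of day 14 (10.81) was level with 1 lavage array of day 0 (10.80). Irf8 had no such division. Lavage day 2 (11.43 and 11.60) lay above every array of capsule day 14, 21 and 28 and overlapped capsule day 7. Lavage day 0 overlapped capsule day 14 and 28, and lavage day 4 overlapped capsule day 21.

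Klf4, a zinc finger factor of monocyte differentiation and alternative activation, rose in the cavity at all 4 times, and from day 4 on by more than any other member. It measured 10.82 and 10.82 at day 0, 11.65 and 11.99 at day 2, 12.13 and 12.39 at day 4, 12.15 and 12.18 at day 7, and 13.04 and 12.98 at day 14. All later arrays lay above those of day 0, day 4 and day 7 overlapped, and with this probe day 14 stood above every other group of the study. With the other 2 probes, lavage day 14 averaged 11.57 (ILMN_1241903) and 10.53 (ILMN_1221264), below the means of capsule day 14, 21 and 28. Klf4 rose by 1.00 at day 2 (SE 0.18, limma adjusted p 0.000739), 1.44 at day 4 (adjusted p 4.63e-05), 1.35 at day 7 (adjusted p 5.68e-05) and 2.20 at day 14 (adjusted p 7.64e-07), the last 4.58-fold. The other 2 Klf4 probes rose at the same 4 times, by 1.54, 1.91, 2.00 and 2.41 (ILMN_1241903) and by 1.02, 1.48, 1.32 and 2.155 (ILMN_1221264). None of the 4 calls was lost under any processing alternative or with any 1 array left out.

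In the capsule the 3 Klf4 probes gave different pictures. The chosen probe, ILMN_2593684, measured 12.02 and 12.02 at day 7, 12.55 and 12.18 at day 14, 12.86 and 12.45 at day 21, and 12.49 and 12.64 at day 28. It rose by 0.64 at day 21 (limma adjusted p 0.0124) and 0.55 at day 28 (adjusted p 0.0294), and the 0.34 of day 14 did not pass (adjusted p 0.178). The other probes passed at all 3 times, with 1.93, 1.13 and 1.19 for ILMN_1241903 and 1.69, 1.18 and 1.36 for ILMN_1221264. At day 14, capsule against lavage, the chosen probe fell by 0.65 (12.55 and 12.18 in capsule cells against 13.04 and 12.98 in lavage cells, adjusted p 0.0107). ILMN_1241903 rose by 1.04 in the same comparison (12.62 and 12.61 in capsule cells against 11.26 and 11.89 in lavage cells, adjusted p 0.00083), and ILMN_1221264 rose by 0.67 (11.13 and 11.27 in capsule cells against 10.24 and 10.82 in lavage cells, adjusted p 0.0355). The direction of Klf4 between capsule and lavage at day 14 therefore depends on the probe. At day 7 no probe passed, with differences of -0.14, -0.48 and -0.18. The interaction was -0.50 with the chosen probe (adjusted p 0.22), 1.52 with ILMN_1241903 (adjusted p 0.00323) and 0.86 with ILMN_1221264 (adjusted p 0.112). The chosen probe's fall was lost without lavage day 14 replicate 1 or capsule day 14 replicate 2 (adjusted p up to 0.115), its day 21 rise without either day 7 array or day 21 replicate 1 (up to 0.141), and its day 28 rise without any of the 4 compared arrays (up to 0.151). Median scaling also ended these 2 rises.

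**Figure D3:**
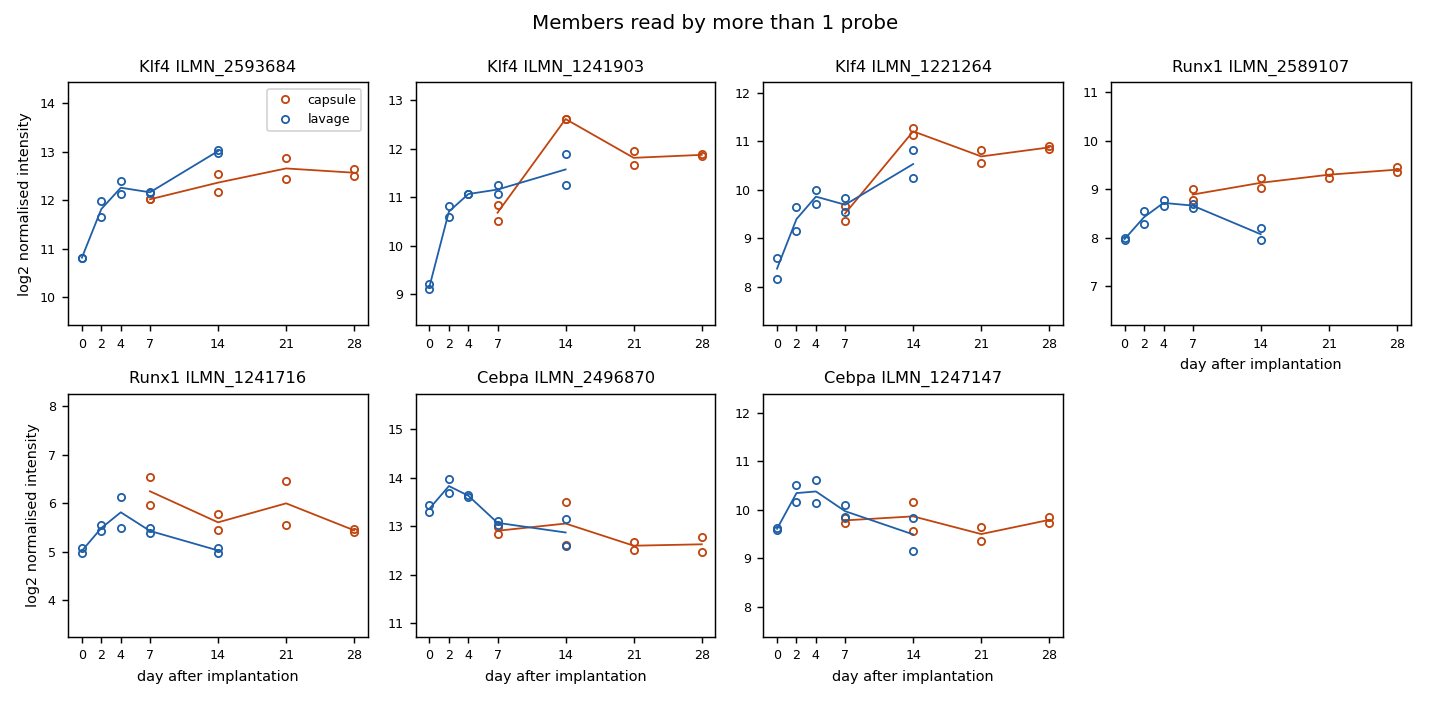
Normalised log2 intensity by day for each kept probe of Klf4, Runx1 and Cebpa, with 1 open circle per array, capsule cells in orange and lavage cells in blue, and 5 log2 units per panel. At day 14 the capsule arrays lie below the lavage arrays for Klf4 ILMN_2593684 and above them for the other 2 Klf4 probes, and Runx1 ILMN_1241716 lies near background.

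The Klf4 promoter is shown for its cavity rise, seen with all 3 probes. It lies on the minus strand at chr4:55532476-55532725 (RefSeq, GRCm38.p6, 250 bases before the start site), written 5′ to 3′ on the gene's strand with GC boxes in capitals.
Klf4: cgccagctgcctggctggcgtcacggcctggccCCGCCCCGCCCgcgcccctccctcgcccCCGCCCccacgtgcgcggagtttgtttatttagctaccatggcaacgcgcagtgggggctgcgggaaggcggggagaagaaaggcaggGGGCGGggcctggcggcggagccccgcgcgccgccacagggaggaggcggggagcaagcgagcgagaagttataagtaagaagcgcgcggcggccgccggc
The window holds 4 matches to GGGCGG on either strand, some of them adjoining, and none to TTCNNNGAA, TATAAA or TTGCNNAA (the C/EBP element), the last of which 9.56% of all promoter windows hold.

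Klf2, the relative of Klf4 that keeps resting myeloid cells quiet, was lower in capsule than in lavage cells at day 7. It measured 13.82 and 13.48 in capsule cells, against 14.28 and 14.17 in lavage cells, at day 7, and fell by 0.58 (SE 0.15, limma adjusted p 0.012; -0.47 and -0.69 within slides). At day 14 it measured 14.18 and 14.05 in capsule cells and 14.14 and 14.29 in lavage cells, which overlapped (-0.10, adjusted p 0.654). The day 7 call was lost without lavage day 7 replicate 1 or capsule day 7 replicate 2 (adjusted p up to 0.132). Within the capsule Klf2 rose by 0.47 at day 14 against day 7 (adjusted p 0.0366), a call lost without capsule day 7 replicate 2 (0.30, adjusted p 0.281), without either day 14 array and with median scaling. At day 21 it differed by -0.03, with arrays of 13.58 and 13.65, and at day 28 by 0.0005, with arrays of 13.59 and 13.70. In the cavity its arrays of day 7 and 14 (14.14 to 14.29) lay below those of day 0 (14.66 and 14.58), but the differences of -0.40 and -0.41 did not pass (adjusted p 0.062 and 0.0696). Both passed with normexp correction, with no background correction and with a mean-dependent prior, and day 14 also with median scaling.

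Runx1, which binds DNA with its partner CBFβ and acts on an enhancer of Spi1, rose and came back in the cavity and stayed high in the capsule. In lavage cells it measured 7.99 and 7.95 at day 0, 8.29 and 8.56 at day 2, 8.78 and 8.65 at day 4, 8.70 and 8.62 at day 7, and 7.95 and 8.20 at day 14. In capsule cells it measured 9.01 and 8.78 at day 7, 9.03 and 9.23 at day 14, 9.36 and 9.24 at day 21, and 9.46 and 9.35 at day 28. The day 14 lavage arrays overlapped those of day 0, and all capsule arrays but 1 lay above every lavage array. Runx1 rose in the cavity by 0.45 at day 2 (limma adjusted p 0.0377), 0.75 at day 4 (SE 0.15, adjusted p 0.00189) and 0.69 at day 7 (adjusted p 0.00302), with 0.10 at day 14 (adjusted p 0.699). Fitted to slides 1 and 2 alone, day 2 no longer passed, with the slide as a block (adjusted p 0.0772) or without it. The day 2 call was also lost without either day 0 array or without day 2 replicate 2 (0.32 to 0.47).

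Capsule against lavage, Runx1 was 2.08-fold higher at day 14 (1.06, SE 0.15, limma adjusted p 8.72e-05), and at day 7 the difference of 0.23 did not pass (adjusted p 0.306). With the chosen probes, 1 member of 9, Runx1, passed the interaction, where 11.5% of all genes did. Klf4 also passed it with ILMN_1241903 (1.52), as above. The Runx1 interaction was 0.83 (SE 0.21, adjusted p 0.0204). It was lost without lavage day 7 replicate 1, lavage day 14 replicate 1, capsule day 7 replicate 2 or capsule day 14 replicate 2 (0.70 to 0.79, adjusted p 0.0611 to 0.0825). Against capsule day 7, Runx1 rose by 0.41 at day 21 (adjusted p 0.0451) and 0.51 at day 28 (adjusted p 0.0181). The day 21 call was lost without any of the 4 compared arrays (adjusted p up to 0.255) or 8 of the others, and that of day 28 without capsule day 7 replicate 2 or either day 28 array (up to 0.136). Median scaling ended both, at 0.14 (adjusted p 0.542) for day 21 and 0.28 (adjusted p 0.215) for day 28. The authors' values and a mean-dependent prior also ended that of day 21. Of 9 T and NK cell markers 5 were measured. Against capsule day 7, 2 of the 5 rose and 0 fell at day 21 and likewise at day 28 (median changes 0.83 and 1.02). Their part in the Runx1 rises was not tested. The second kept Runx1 probe, ILMN_1241716, was close to background, with raw intensities of 74.5 to 186.8, and was detected on both arrays only at capsule day 7 and day 21. With neither lavage array of day 7 above background, it was at least 1.47-fold higher in capsule at that day. It was at least 1.65-fold lower in capsule day 28, on neither array above background, than in capsule day 7. The fitted differences of 0.82 and -0.80 passed (limma adjusted p 0.0441 and 0.0389). These p-values rest on values below detection and do not test the bounds. The lavage arrays of day 7 and 14 were all below detection on this probe, so it gives no direction for the interaction. At capsule day 28 against day 7 the 2 probes went opposite ways.

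Maf, which encodes c-Maf, a regulator of interleukin 10 in macrophages, swung most between neighbouring days of the cavity. It measured 11.40 and 11.87 at day 0, 12.47 and 12.99 at day 2, 10.74 and 11.15 at day 4, 12.20 and 11.84 at day 7, and 10.73 and 11.18 at day 14. Day 2 stood above every other group of the study, and day 4 and 14 overlapped each other below day 0. Its replicate spread was wide, with a pooled SD of 0.32. Maf rose by 1.10 at day 2 (SE 0.28, limma adjusted p 0.0111; 1.07 and 1.12 within slides). Day 4 (-0.69, adjusted p 0.0907), day 7 (0.39, adjusted p 0.354) and day 14 (-0.68, adjusted p 0.115) did not pass; with the slide as a block day 4 did (adjusted p 0.0363) and day 14 did not (0.0504), while with median scaling day 14 did (-1.05, adjusted p 0.00488). The day 2 call was lost without day 0 replicate 1 or day 2 replicate 2 (adjusted p up to 0.11).

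In the capsule Maf measured 11.56 and 11.81 at day 7, 10.39 and 11.30 at day 14, 10.61 and 10.57 at day 21, and 10.80 and 10.76 at day 28. All later arrays lay below those of day 7. Maf fell at day 14 (-0.84, limma adjusted p 0.0453), day 21 (-1.10, SE 0.28, adjusted p 0.00904) and day 28 (-0.91, adjusted p 0.027). The day 14 call was lost without day 14 replicate 1 (-0.39, adjusted p 0.375), either day 7 array or 6 arrays of other groups, whose removal left the difference as it was. Without day 14 replicate 2 the day 14 change was -1.30. The day 21 call was lost without day 7 replicate 2 (adjusted p 0.0658), and that of day 28 without any of the 4 compared arrays (up to 0.140). Capsule and lavage did not differ past the threshold at day 7 (-0.34, 95% interval -0.95 to 0.28) or day 14 (-0.11, interval -0.73 to 0.50).

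Among the core factors, Cebpb was the steadiest of the 9. Its group means ran from 14.42 in capsule day 7 to 14.70 in capsule day 14, a span of 0.28, and 0.6% of all genes had a span as small. The median span of all genes was 1.05. No Cebpb difference passed in any of the 10 comparisons; the largest was 0.28 for capsule day 14 against day 7 (95% interval -0.001 to 0.57, limma adjusted p 0.142). Its raw intensity was 15983.3 to 34063.6, and the scale of the arrays reached 40760.7 to 71532. Whether the upper end of the scale narrowed its range was not tested.

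Spi1 was highest early in the cavity and lowest late in the capsule. It measured 10.67 and 10.66 at lavage day 0, 11.44 and 10.94 at day 2, 11.18 and 10.94 at day 4, 10.75 and 10.71 at day 7, and 10.66 and 10.96 at day 14. It rose at day 2 by 0.53 (SE 0.18, limma adjusted p 0.0428), and the 0.40 of day 4 did not pass (adjusted p 0.115), though it did with median scaling (0.60, adjusted p 0.0415). The day 2 call was lost in the arrays of slides 1 and 2 alone, with the slide as a block (adjusted p 0.0689) or without it. It was also lost with the slide as a random effect, on the authors' values and with no detection filter. Leaving out day 2 replicate 1 (0.28), either day 0 array or any of 6 arrays of other groups ended it too. Neutrophils also use PU.1 and C/EBP factors, and the 9 measured neutrophil markers summed to 51950 to 75494 at day 2 and 51824 to 64845 at day 4, against 2545 to 3076 at day 0; their part in the early values was not tested. In the capsule Spi1 measured 10.95 and 10.70 at day 7, 10.55 and 10.77 at day 14, 10.22 and 10.31 at day 21, and 10.32 and 10.15 at day 28. It fell at day 21 (-0.56, adjusted p 0.0256) and day 28 (-0.59, adjusted p 0.0227). These calls were lost without day 7 replicate 1, either day 21 array or day 28 replicate 2 (adjusted p 0.0663 to 0.165). Neutrophil markers summed to 6822 to 9413 at capsule day 7, 3579 to 3755 at day 14, 1894 to 2532 at day 21 and 1349 to 2265 at day 28. Against day 7, 5 of the 9 fell at day 21 and 6 at day 28 (median changes -1.56 and -1.40), and their part in the fall of Spi1 was not tested. Capsule against lavage, Spi1 differed by 0.09 at day 7 (95% interval -0.29 to 0.48) and -0.15 at day 14 (interval -0.53 to 0.24), and the arrays overlapped on both days.

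Cebpa passed in none of the 10 comparisons with its chosen probe and quantile normalisation. Its lavage arrays measured 13.29 and 13.43 at day 0, 13.68 and 13.97 at day 2, 13.60 and 13.65 at day 4, 13.12 and 13.02 at day 7, and 12.60 and 13.14 at day 14. Day 2 and day 4 lay above day 0 and the later days below it, by 0.47 at day 2 (limma adjusted p 0.205) and -0.49 at day 14 (adjusted p 0.189), which passed with median scaling (-0.72, adjusted p 0.0219). Its second probe, ILMN_1247147, passed at day 2 (0.74, SE 0.24, adjusted p 0.0392) and day 4 (0.77, adjusted p 0.0295). At day 7 that probe gave 0.36 (adjusted p 0.309), against -0.29 (adjusted p 0.439) with the chosen one, and neither passed. In capsule cells the chosen probe measured 12.47 to 13.50 over the 8 arrays, and the 2 arrays of day 14 stood apart at 12.60 and 13.50. The chosen probe was lowest in capsule day 21, and the second in lavage day 14 (9.49).

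The families around the members, with other myeloid regulators, were described from lists of 62 genes, of which 50 were measured. Of the 50, 12 were other myeloid regulators and not relatives or partners. At day 7, capsule against lavage, 10 of the 50 rose and 8 fell, where 24.1% of all genes changed. The median change was 0.07, against -0.02 over all genes. The 12 other myeloid regulators held 6 of the 10 rises and 1 of the 8 falls. At day 14, 14 of the 50 rose and 11 fell, where 35.3% of all genes changed (median 0.16, against -0.02). In the cavity 7 rose and 11 fell at day 2 (25% of all genes changed), 10 and 6 at day 4 (28%), 7 and 12 at day 7 (28.6%), and 10 and 8 at day 14 (19.8%). Against capsule day 7, 6 rose and 2 fell at day 14 (23.9%), 9 and 5 at day 21 (35.3%), and 6 and 4 at day 28 (31.2%). The largest rises of capsule over lavage were those of Egr1, an immediate early gene from the list of other myeloid regulators. It rose by 3.85 at day 7 and 3.21 at day 14 (limma adjusted p 2.35e-05 and 6.89e-05).

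**Figure D4:**
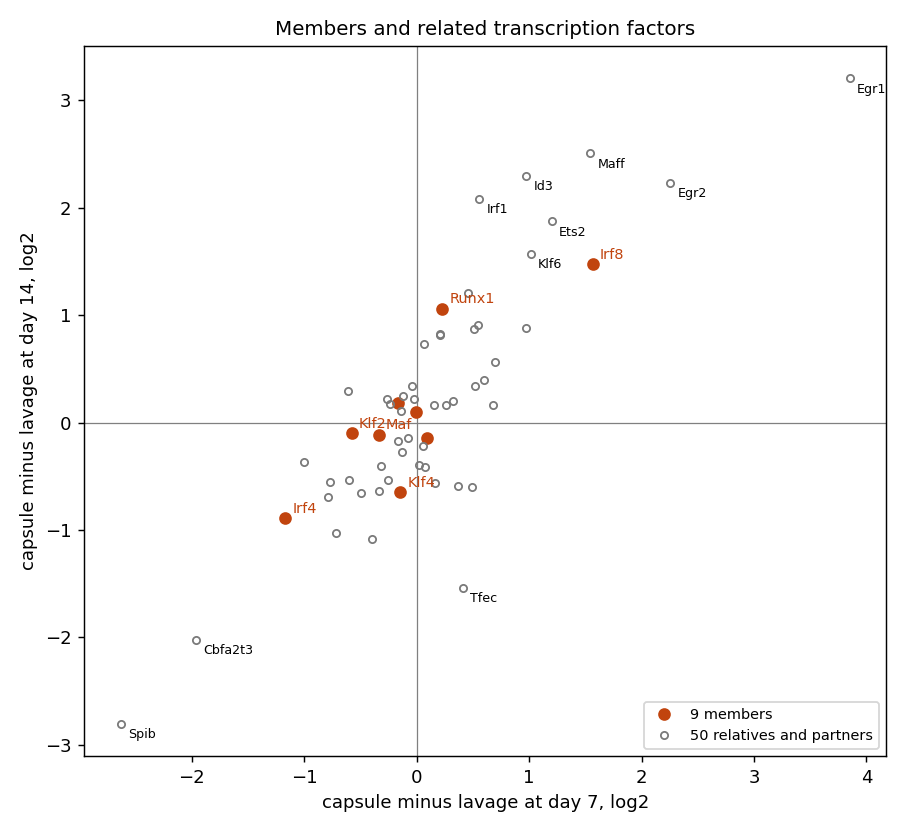
Capsule minus lavage on the log2 scale at day 7 (horizontal) and day 14 (vertical). The 9 members are filled, and the 50 measured relatives, partners and other myeloid regulators are open. The 2 days share no array. Spib and Cbfa2t3 lie at the lower left and Egr1, Egr2 and Maff at the upper right, and Irf8 and Irf4 lie towards opposite corners.

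Among ETS genes, Spib, the PU.1 relative of B cells and plasmacytoid dendritic cells, fell in the cavity at day 2, 4, 7 and 14, with changes of -1.38, -1.66, -1.46 and -1.35 (limma adjusted p 0.00187 to 0.0101). It was detected on neither capsule array of day 7 and was at least 5.55-fold lower there than in lavage, and it fell by 2.81 at day 14. Ets2, a target of growth factor signalling, rose in capsule over lavage by 1.20 at day 7 and 1.88 at day 14, and in the cavity by 1.27 at day 2 and 0.73 at day 4. Etv3, an ETS repressor, rose in the cavity by 0.67, 1.05, 1.45 and 1.11 at the 4 times. Of the 4 measured C/EBP relatives, Cebpe, the factor of granulocyte maturation, moved most. It rose in the cavity by 1.88, 1.09, 2.22 and 1.89 at the 4 times, and fell in the capsule at day 14, 21 and 28 against day 7, with changes of -1.02, -2.22 and -2.77 (adjusted p for day 28 1.32e-06).

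All 10 IRF relatives and partners were measured. At day 7 of the cavity 1 rose and 4 fell, among them Irf7, a master gene of type I interferon, by 2.30 (limma adjusted p 0.00257), while Batf3, a partner of IRF8 in dendritic cells, rose by 1.00. Batf3 fell in capsule against lavage, with changes of -0.71 at day 7 and -1.02 at day 14, as did Ikzf1 with -0.79 and -0.70. Irf1, the interferon-gamma inducible member, rose by 2.08 at day 14 of capsule against lavage (adjusted p 9.4e-05), and its interaction of 1.53 passed (adjusted p 0.0288). Maff, a small Maf protein, rose in capsule over lavage by 1.54 at day 7 and 2.51 at day 14, with an interaction of 0.96 (adjusted p 0.0201). Mafg fell in the cavity at all 4 times, with changes of -0.74 to -0.65. Among KLF relatives, Klf6 rose in capsule over lavage by 1.02 at day 7 and 1.57 at day 14, while Klf3 fell by 1.00 in capsule against lavage at day 7 and rose in the capsule by 1.14, 1.38 and 1.04 at day 14, 21 and 28 against day 7. Cbfa2t3, a corepressor of the ETO family listed with the RUNX partners, fell in capsule against lavage, with changes of -1.96 at day 7 and -2.02 at day 14 (adjusted p 4.69e-07 and 2.66e-07). Of the other myeloid regulators, Egr2 rose in the cavity at all 4 times, by 1.06 to 2.40, and Lmo2 and Tal1 fell at day 7, with changes of -1.33 and -1.998.

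Genes that PU.1 and C/EBP proteins are known to activate were described from a list of 22, of which 18 were measured. In the cavity 7 rose and 2 fell at day 2 (25% of all genes changed), 4 and 2 at day 4 (28%), 4 and 3 at day 7 (28.6%), and 4 and 5 at day 14 (19.8%). In the capsule 1 rose and 5 fell at day 14 against day 7 (23.9%), 1 and 8 at day 21 (35.3%), and 1 and 6 at day 28 (31.2%), with median changes of -0.05, -0.55 and -0.44, against 0.03, 0.02 and 0.01 over all genes. Those that fell at day 21 included Fcgr1, the high-affinity IgG receptor (-1.70), and Cybb, the NADPH oxidase subunit (-1.13). Spi1 also fell at day 21 and 28, as above, and these comparisons share their day 7 arrays. Capsule against lavage, 3 rose and 2 fell at day 7 (24.1%), and 4 rose and 6 fell at day 14 (35.3%). Fcgr1 rose by 3.10 at day 7 (limma adjusted p 4.01e-07) and was at least 13.3-fold higher at day 14, when neither lavage array detected it, and Cybb fell by 1.81 at day 14. Mrc1, the mannose receptor, rose in the cavity by 1.51, 1.56, 2.43 and 1.27 at day 2, 4, 7 and 14. Csf3r, the G-CSF receptor, fell in the cavity, with changes of -2.45 at day 7 and -2.72 at day 14.

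The genes whose 9 group means followed each member most closely were sought for the 7 members that spanned at least 1 log2 unit. Pearson r was computed over the 9 group means among 5788 other genes of such a span, as a description, because groups share slides and normalisation and the best of many is high by selection. Ppcs (r 0.99) and Lbp (0.94) lay closest to Irf4, and Adam17 (0.94) and Myoz1 (0.93) to Irf8. Fkbp5 (0.97) and Ensa (0.96) lay closest to Klf4, Pfkp and H4c1 (both 0.98) to Runx1, and Slc16a10 (0.95) and Apba1 (0.93) to Maf. Nsun2 and Eml6 (both 0.97) lay closest to Cebpa, and Pak1ip1 (0.98) and Polg (0.97) to Klf2. Between members, r was 0.91 for Cebpa with Klf2, 0.86 for Spi1 with Cebpa and -0.68 for Irf4 with Irf8.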

How the data were processed

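The 9 members and the lists of relatives, other myeloid regulators, target genes and markers were chosen with earlier results of these data known. The authors deposited, per the file headers, a linear intensity without background subtraction and a detection p-value for each of 46632 probes on each of 18 arrays. The authors also deposited quantile normalised log2 values; BeadStudio and R 2.15.3 stand in the submitters' processing notes, and their background treatment was not given in the sources used here.

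Intensities were corrected and quantile normalised with neqc (limma 3.58.1, R 4.3.3, offset 16). A probe entered if some group had a detection p under 0.05 on both its arrays (20985 probes). The platform annotation gave 1 gene symbol to 29976 probes, several to 10 and none to 16646, and the last 2 kinds were not used. The brightest entering probe by mean level stood for its gene (10806 of 17711 named genes). No symbol was updated through the RefSeq table. One mean per group was fitted over all arrays and moderated by empirical Bayes (residual degrees of freedom 9, prior 4.58), in 10 comparisons with 2-sided tests and Benjamini-Hochberg adjustment over all 10806 genes, at 0.05. The fit was tested on simulated data.

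The slide of each array is in the labels, and the replicate number marks slide 1 or 2 for 6 groups, which pairs their arrays; deviations of replicate 1 correlated at -0.11 to 0.129 between those groups (15 pairs, 1 above 0.1). These 12 arrays were also fitted with the replicate as a block. For a probe undetected on both arrays of a group, the bound sets the brighter mean against the higher of the probe's own level and the lowest detected level on each array.

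All 9 members are named. From each list, up to 2 genes with the largest change in each direction are named per comparison, and their values in other comparisons were added after they were seen. The 2 genes most like each member were named by Pearson r. Alternatives were normexp correction (offset 50), no correction, median scaling, a detection p of 0.01 or no such filter, the authors' values, a mean-dependent prior, other probes, the replicate block and its arrays unblocked, a random slide block, and leaving out each array.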

Additional observations from a re-analysis of the deposited data

Results flagged for a closer look

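The capsule-minus-lavage difference of Runx1 differed between the days: its interaction, day 14 less day 7, was 0.83 (SE 0.21, limma adjusted p 0.0204). Capsule less lavage was 1.06 at day 14 and 0.23 at day 7, and within the slides that held both day 7 groups it was 0.30 and 0.15. Capsule day 14 was on a slide of its own, so that slide and day cannot be told apart in this interaction. The second Runx1 probe was below detection on every lavage array of day 7 and 14 and gives no usable value here.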

How the results depend on the processing

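Of 36 member differences that passed with the chosen probes, 27 passed under every processing alternative run on these same probes. Of the 36, 14 passed with any 1 array left out, and none changed sign in either set. Other probes gave other signs: Klf4 gave 1.04 (ILMN_1241903) and 0.67 (ILMN_1221264) for capsule against lavage at day 14 and 1.52 (ILMN_1241903) for the interaction. Runx1 ILMN_1241716 gave -0.25 for capsule day 21 against day 7, and fitted values of -0.80 for day 28 and -0.24 for the interaction, where whole groups were below detection, so that only the bound holds for day 28 and the interaction has no direction. Median scaling ended 7 calls and added 4, and made 5 members changed at lavage day 14 and 3 at capsule day 21. With the replicate block, lavage day 2 had 2 members changed, as it had for the same arrays without it (2), so the smaller number of arrays alone gave that count; Maf at day 4 was added (adjusted p 0.0363), Spi1 and Runx1 at day 2 were lost, and the block changed no other member call. In the interaction, 0 members passed with Runx1 ILMN_1241716 and 2 with Klf4 ILMN_1241903. Leaving out each array gave 1 to 4 members at lavage day 2, 1 to 3 at capsule day 14, 2 to 5 at day 21, 0 to 6 at day 28 and 0 to 1 in the interaction; the lowest came without lavage day 0 replicate 1 (day 2), capsule day 28 replicate 2 (day 28) and several arrays elsewhere. The authors' values ended 3 calls, no filter 2, the random slide block 1 (correlation -0.0631) and a mean-dependent prior 2. Median scaling moved the median of all genes by over 0.1 at lavage day 4 (0.14) and 14 (-0.29), capsule day 21 and 28 (both -0.14), capsule against lavage day 7 (-0.20) and the interaction (0.29). Of all genes called, the share that rose was 69.6% against 54.9% with quantiles at lavage day 4, 13.8% against 52.1% at day 14, 36.3% against 49.5% at capsule day 14, 36.9% against 52.6% at day 21, 35.7% against 52% at day 28, 27% against 48.3% for capsule against lavage at day 7 and 74.2% against 40.6% in the interaction. With 2 arrays a group, depth of replication limits small changes, and Runx1 ILMN_1241716 is limited by its signal over background.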

Other observations

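Among the remaining relatives and other myeloid regulators, Id3, a repressor of E proteins, rose in capsule against lavage at day 14. The rise was 2.30 (limma adjusted p 1.25e-05). In the capsule Id3 rose by 1.72, 2.36 and 1.69 at day 14, 21 and 28 against day 7. Tfec, a MITF relative of macrophages, fell in the capsule at the same times, with changes of -2.07, -1.53 and -1.44, and rose in the cavity by 1.71, 1.23 and 1.11 at day 4, 7 and 14 against day 0. The interactions of Tfec (-1.95, adjusted p 0.0178) and Id3 (1.32, adjusted p 0.0309) both passed. Bach1, a partner of small Maf proteins, rose in the capsule by 1.08, 1.57 and 1.36 at day 14, 21 and 28. Ddit3, the C/EBP relative of the stress response, rose by 1.19 at capsule day 14 and 1.52 at day 28.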
